A study of Mus musculus with 2 samples.

Results

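The MYC and MAX network was followed in Xbp1 knockout mouse embryonic fibroblasts, on day 3 of adipogenesis (the formation of fat cells) induced by drugs and on day 0. Its members were chosen by gene symbol, current or older, and not by measured values. They were Myc, Mycn, Max, Mxd1, Mxd3, Mxd4, Mxi1, Mnt and Mlx, 9 of the 16637 named genes on the array, represented by 13 of 21020 named probes. The day 3 group was 1 culture sample at the end of 72 h of induction, and the day 0 group was 1 culture sample at confluence. The induction medium held insulin at 10 µg/ml, IBMX at 0.25 mM, and troglitazone and DXM at 5 µM each. IBMX blocks the phosphodiesterases that degrade cAMP, and troglitazone activates PPARγ. Both groups are labelled as lacking Xbp1, a transcription factor gene of the unfolded protein response, and cells that carry it were not part of this comparison. The labels do not say whether the fibroblasts were 1 clone or a pool. Each day was 1 single-colour array. The differences therefore have no replicate check and no p-value, and array and day cannot be told apart.

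MYC proteins are basic helix-loop-helix leucine zipper transcription factors that bind DNA as partners of MAX, mostly at E-boxes, and raise genes of ribosome assembly, metabolism and cell division. The MXD proteins, MXI1 and MNT also pair with MAX at E-boxes, but they bring the SIN3 and histone deacetylase corepressors and lower transcription. MLX is a parallel partner that binds MondoA and ChREBP, factors of the response to glucose, and also MXD1, MXD4 and MNT. In fibroblast lines that make fat cells, high MYC is known to hold back differentiation, and MYC activity accompanies the cell divisions that precede it.

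The labelled cell type was checked first, on signals, which are intensities quantile-normalized between the arrays. The detection threshold was the median signal of all gene probes, 122. All 10 fibroblast markers were above the detection threshold on both days, with summed signals of 196741 on day 3 and 240722 on day 0, sums that include saturated probes of Dcn on both days and of Vim on day 0. They went both ways, with the matrix genes Fn1 (log2 difference 2.06) and Lum (1.60) higher on day 3 and S100a4 (-1.56) and Col1a1 (-1.06) lower. All 5 adipocyte markers were below the threshold on both days, with sums of 291.5 and 62 for day 3 and day 0, but all 5 read higher on day 3. Adipoq gave 120.5 on day 3, just under the threshold, and 12 on day 0, and Fabp4 gave 59.5 on day 3 and 10.5 on day 0. The raw day 3 intensities of the 5 ran between 21 and 164, above the 95th percentile of empty spots on that array, which was 9. Of the endothelial markers 2 of 4 were above the detection threshold of 122 on day 3 and 3 of 4 on day 0, with sums of 752.5 and 541. Of the leukocyte markers 1 of 4 and 2 of 4 were above that threshold, with sums of 331.5 and 472. Of the epithelial markers 0 of 4 were above that threshold on day 3 and 1 of 4 on day 0 (sums of 191 and 305.5), and of the skeletal muscle markers 2 of 4 on each day (1202 and 653.5). The leukocyte marker Ptprc and the epithelial marker Epcam read no more than 2 on either day, but other markers in these lists were brighter. Pecam1 (endothelium) gave 568.5 on day 3 and 189.5 on day 0, and Des (skeletal muscle) gave 912 and 389. Cd68 (leukocyte) gave 268 on day 3 and 198.5 on day 0. Csf1r (leukocyte) and Krt18 (epithelium) were above the threshold on day 0 only, at 269.5 and 148. These markers were named after their values were seen. The part of other cell types in the results was not tested, and a smaller share of cells of a type and less RNA per cell cannot be told apart. Xbp1 itself gave signals of 13561 on day 3 and 20936 on day 0, and the position of its probe against the deletion is not known here, so this signal does not check the genotype. The day 3 array was brighter, with a median raw intensity over gene probes of 166, against 78 on day 0.

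The binding letters of the network can be shown in its own promoters. RefSeq promoters (GRCm38.p6, 250 bases before to 50 after a transcript start) were matched for 8 of the 9 members. The E-box CACGTG, which reads the same on both strands and was the only motif searched, was found in 4 of these 8 genes, against 8.09% of the 27025 genes in the promoter table and 12.1% of the 8648 detected genes with an entry. The members that hold it were Max, Mlx, Mnt and Mxd4, with 1 match each. The stretches below are shown because the site that the network binds lies in the promoters of its shared partner Max, its parallel partner Mlx and a pair of its repressors. Capitals mark the E-box, each stretch is given 5′ to 3′ on the gene's strand, and a match is a description and not a binding site. The start is that of the promoter entry, which lies inside the outer 5′ end in the RefSeq gene table by 75 bases for Max, 583 for Mlx and 118 for Mnt, and coincides with it for Mxd4.
Max, chr12:76962234-76962263, minus strand, E-box beginning 3 bases before the start: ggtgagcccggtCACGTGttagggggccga
Mlx, chr11:101087238-101087267, plus strand, E-box beginning 40 bases before the start: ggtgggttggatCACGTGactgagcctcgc
Mnt, chr11:74830789-74830818, plus strand, E-box beginning 123 bases before the start: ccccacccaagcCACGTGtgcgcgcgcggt
Mxd4, chr5:34187912-34187941, minus strand, E-box beginning 219 bases before the start: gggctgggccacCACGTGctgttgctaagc

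Across the network, Myc was the member that differed most, 4.04-fold lower on day 3. Its partner Max and the repressor genes Mxd4 and Mnt were 1.48-fold to 1.54-fold lower, while the repressor genes Mxd1 and Mxi1 and the parallel partner gene Mlx were 1.31-fold to 1.82-fold higher by their brightest probes. A second Mxi1 probe gave the opposite direction, with no normalization Mnt was higher, and under median scaling over all gene probes Mlx was lower. Of the 9 members, 7 were detected, that is above the threshold on at least 1 day, and all 7 were above it on both days. Of these 7, 1 was at least 2-fold lower, as read and at its bound (with any signal under the threshold set to it), and no member reached 2-fold in the other direction. Over all 10656 detected genes 10.3% were at least 2-fold lower and 12.8% at least 2-fold higher as read, and 8.51% and 10.2% when signals under the threshold were set to it. With 1 gene at 2-fold of 7, the members' count does not stand apart from that background. Their median log2 difference was -0.57, against 0.03 for all detected genes, whose quartiles were -0.47 and 0.56.

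**Figure D1:**
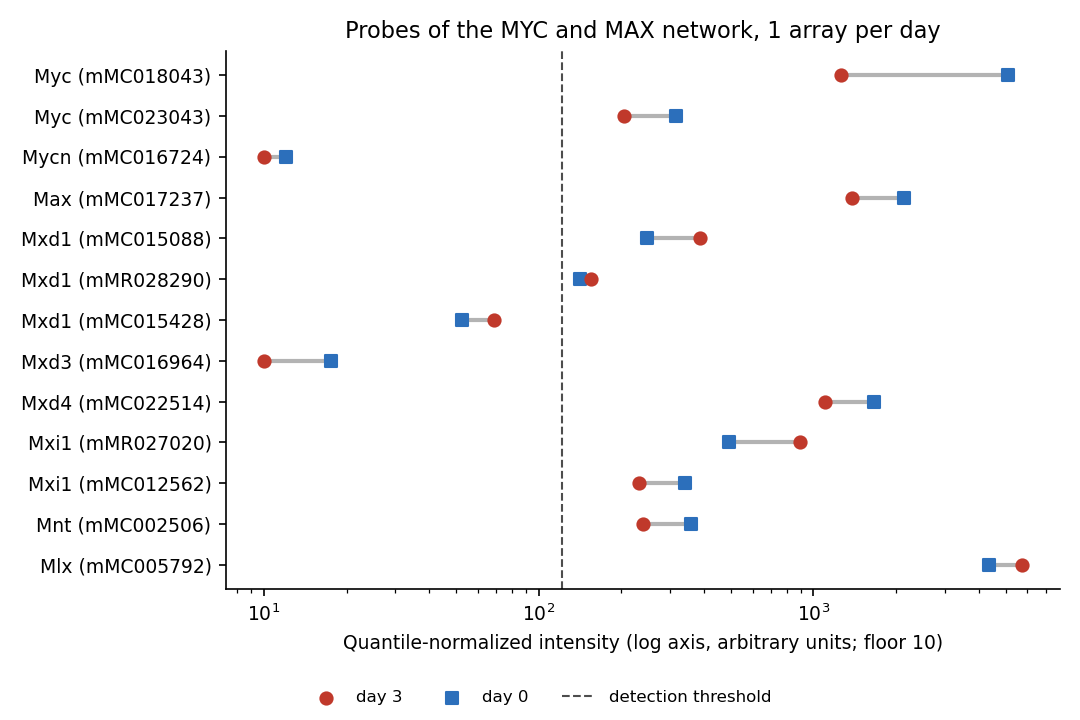
Signals of all 13 probes of the network, with quantile-normalized intensity on a log axis and a probe on each line. Circles are the day 3 array, squares the day 0 array and the dashed line the detection threshold of 122. The brighter Myc probe has the widest gap, with day 3 at 1264.5 and day 0 at 5109.5, and the Mycn and Mxd3 probes lie below the threshold on both days.

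Myc, which encodes the proto-oncogene transcription factor at the head of the network and lies at chr15:61985341-61990361 of GRCm38.p6, had 2 probes. The brighter probe (mMC018043) gave a signal of 1264.5 on day 3 and 5109.5 on day 0, which differ by -2.01 on the log2 scale. Its raw intensity was also lower on day 3, at 1493, against 4367 on day 0, although the day 3 array was the brighter. The difference exceeded the repeat-spot error, which is the SD of a difference between spots, estimated from control features printed repeatedly within each array. At this signal it was 0.42 from the median feature and 0.58 pooled over features. It holds no variation between the 2 arrays, so exceeding it does not show a difference between the days. Only 200 of the 10656 detected genes had a more negative difference.

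The dimmer Myc probe (mMC023043) gave 204.5 on day 3 and 316 on day 0, which differ by -0.63 on the log2 scale. This lay in the same direction, but within the pooled repeat-spot SD of 0.69 at its signal. Its raw intensities were 269 on day 3 and 228 on day 0, so that its direction rests on the normalization. The probes of Myc therefore differed in size, and the mean of both gave -1.32. Where each probe lies in the transcript was not analysed here.

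The detected genes whose pair of signals lay nearest to that of Myc were Rnf13, at a distance of 0.036 in log2 signal, Pank3, at 0.045, and 3110082I17Rik, at 0.18. Rnf13 encodes a membrane-bound ubiquitin ligase and Pank3 an enzyme that starts the synthesis of coenzyme A. Rnf13 gave 1267 on day 3 and 4984.25 on day 0, and Pank3 gave 1263.5 on day 3 and 4952 on day 0. The likeness covers 2 arrays only.

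Max, which encodes the partner that both MYC and its antagonists need in order to bind DNA, gave a signal of 1380.5 on day 3 and 2131.5 on day 0. Its log2 difference was -0.63, larger than the repeat-spot SD of 0.42 and slightly larger than the pooled value of 0.58. Its raw intensities were close together, at 1623 on day 3 and 1778 on day 0. Of all detected genes, 19.6% had a difference as negative or more so.

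**Figure D2:**
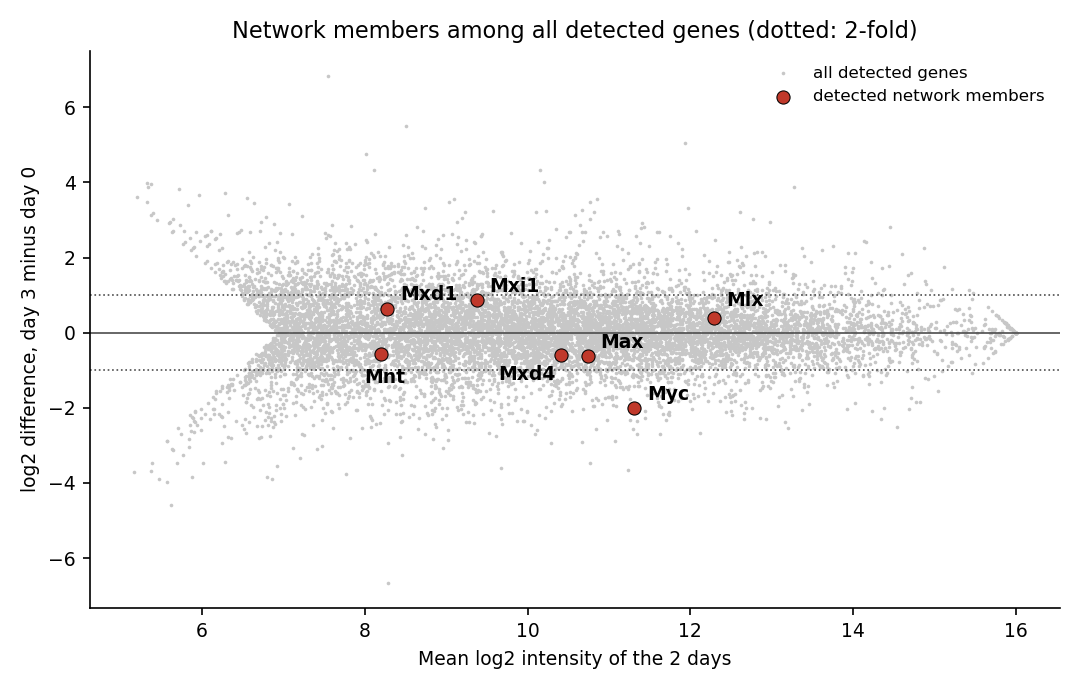
Log2 difference, day 3 minus day 0, against the mean log2 intensity of the 2 days, for the 10656 detected genes (grey) and the 7 detected network members (red, named). Dotted lines mark 2-fold. Myc is the only member beyond a dotted line, at -2.01, and the other 6 lie between -0.63 and 0.86.

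The repressor genes of the network did not move together. Mxi1, which encodes a repressor that competes with MYC for MAX, had 2 probes of opposite sign. Its brighter probe (mMR027020) gave 894 on day 3 and 492 on day 0, or 0.86 higher on the log2 scale, against repeat-spot SDs of 0.34 and, pooled, 0.74. Its dimmer probe (mMC012562) gave 232 on day 3 and 340.5 on day 0, a difference of -0.55 that is larger than the first of these SDs and smaller than the second. The mean of both probes was 0.15. The promoter table lists 3 starts for Mxi1, and 0 of these promoters hold CACGTG.

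Mxd1, which encodes the repressor MAD1 that is known for its rise in many cells as they stop dividing and differentiate, gave 387 on day 3 and 248.5 on day 0 by its brightest probe (mMC015088). This log2 difference of 0.64 was above the repeat-spot SD of 0.34 and below the pooled value of 0.74. Its other detected probe (mMR028290) gave 154.5 on day 3 and 141 on day 0, a difference of 0.13 and within the error. The remaining probe was below the threshold on both days, at 68.5 on day 3 and 52.5 on day 0. All 3 probes thus read higher on day 3, the detected ones by 0.64 and 0.13.

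Mxd4, which encodes the repressor MAD4, gave 1105.75 on day 3 and 1665 on day 0. Its log2 difference of -0.59 exceeded the repeat-spot SD of 0.42 and was about the size of the pooled value of 0.58. Mnt, which encodes a repressor made in dividing and resting cells alike, gave 240.5 on day 3 and 357 on day 0. Its difference of -0.57 lay between the repeat-spot SD of 0.34 and the pooled value of 0.74, and in raw intensity Mnt was higher on day 3, at 311, against 264 on day 0. In the authors' table the Mnt difference was smaller, at -0.30.

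Mlx had its only probe named by the current symbol. That name is also listed as an older synonym of Mlxipl, which had a probe of its own. The Mlx probe gave 5734.5 on day 3 and 4372 on day 0. The log2 difference of 0.39 was close to the repeat-spot SD of 0.37 and under the pooled value of 0.89, so Mlx did not differ beyond the pooled error.

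Mycn and Mxd3 were not detected. Mycn, a MYC gene best known from embryonic and neural tissue, had raw intensities of 0 on day 3 and 7 on day 0, no higher than the 95th percentile of empty spots, which was 9 on day 3 and 7 on day 0. Mxd3, a repressor gene known for its activity in dividing cells, read 11 on day 3 and 10 on day 0, just above that percentile. No fold is given for either, and a dim probe leaves it unknown whether the gene was transcribed.

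**Figure D3:**
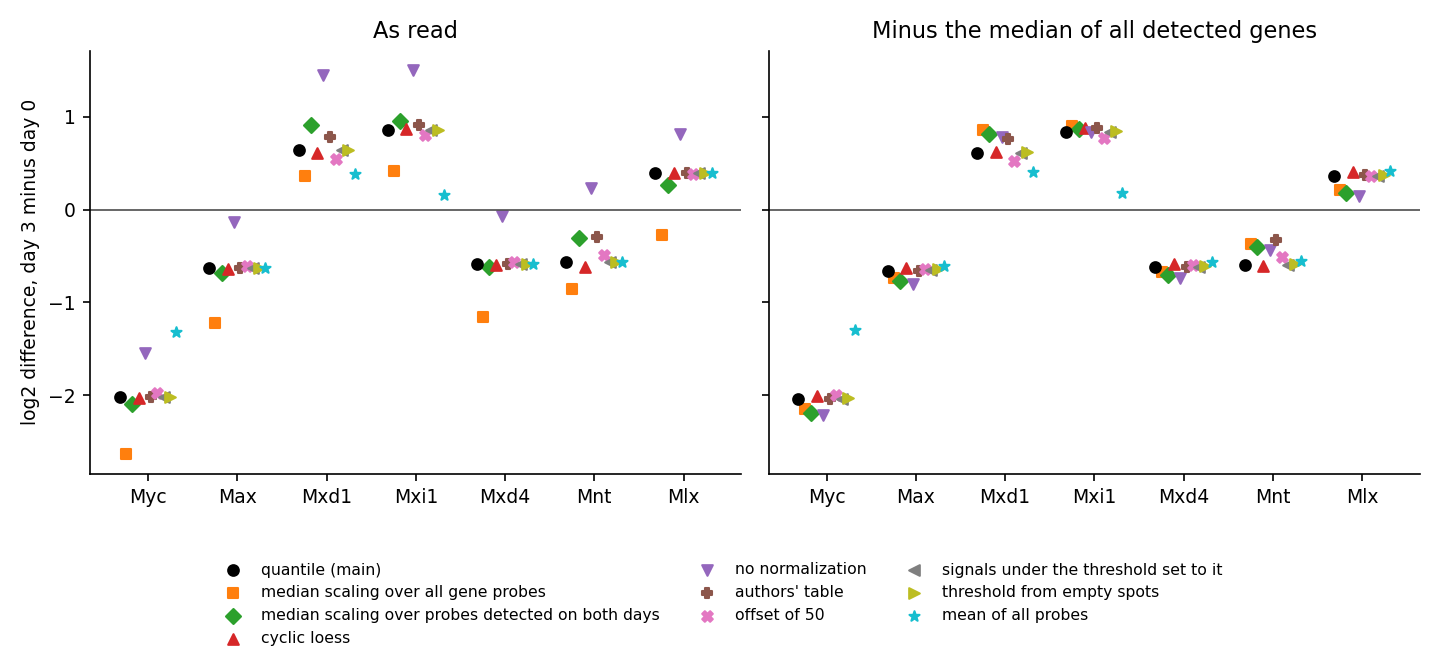
Log2 differences of the 7 detected members under 10 processing settings, as read (left) and after subtracting the median of all detected genes in the same setting (right). Each symbol is a setting, and black circles are the main one. Relative to all genes, the signs are the same in the 10 settings shown, several of which cannot change them, with Myc, Max, Mxd4 and Mnt below 0 and Mxd1, Mxi1 and Mlx above it.

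Because the members with small differences depended on how the arrays were scaled, each was also read relative to the median of all detected genes. Relative to that median, Myc lay between -2.22 and -1.30 over the 10 settings. Max lay between -0.80 and -0.61, Mxd4 between -0.74 and -0.57, and Mnt between -0.60 and -0.33. Mxd1 lay between 0.41 and 0.85, Mxi1 between 0.18 and 0.90, and Mlx between 0.15 and 0.41. The signs of the 7 relative values were the same in all 10 settings, but these are not 10 separate checks. The 2 median scalings and the setting without normalization differ by 1 constant per array, which the subtraction removes, so they count as 1 check, and the 2 settings that act only on the threshold leave the members' own values as they were. As read, Mlx was below 0 in 1 setting and Mnt above 0 in 1. The settings share the same 2 arrays.

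Relatives of the network that are not members showed 2 of 9 detected genes at least 2-fold lower on day 3 (22.2%, against 10.3% of all detected genes) and 0 higher (against 12.8%). Their median was -0.21, but it ran between -0.47 and 0.62 over the 10 settings and was below 0 in 7 of them. Mga, which encodes a large MAX partner that also carries a T-box, gave 257.5 on day 3 and 899 on day 0 by its brighter probe, which differ by -1.80 on the log2 scale. Its other probe gave -0.51. Usf2, which encodes a factor that binds the same E-boxes without MAX, gave 718 on day 3 and 1461 on day 0, a difference of -1.02, with -0.85 by its other probe. The following were chosen after their values were seen. Mlxip, which encodes MondoA, the partner of MLX, gave 1900.5 on day 3 and 1224 on day 0 (0.63, and 0.54 by its other detected probe), and Bmyc, a MYC relative of rodents, gave 1367.5 on day 3 and 693 on day 0 (0.98). The ChREBP gene Mlxipl was below the threshold on both days, at 22.5 on day 3 and 27 on day 0. Of the 7 detected genes for the polycomb complex that holds MGA and MAX, Mga alone was 2-fold lower (14.3%, against 10.3% of all detected genes) and 0 were 2-fold higher (against 12.8%), which does not stand apart from the background. Their median was -0.40.

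Genes described as raised by MYC were lower on day 3 in 25 of 26 detected cases, or 96.2%, against 48.4% of all detected genes. At least 2-fold lower were 9 as read (34.6%, against 10.3% of all detected genes) and 8 at their bound (against 8.51%). As read, 0 were 2-fold higher, against 12.8% of all detected genes. Their median of -0.80 stood against 0.03 for all detected genes, and relative to all genes it lay between -1.03 and -0.75 over the 10 settings. The list was chosen from textbook knowledge with earlier results of these data known, and many of its genes also act in growth and division. Among the 25 lower genes, Odc1, Npm1, Cad, Tfrc, Cdc25a and Tfap4 were higher on day 3 in raw intensity, so their direction rests on the normalization. Odc1, Npm1, Cad and Tfrc also differed by less than their repeat-spot SD. Ccnd2, which encodes the G1 cyclin D2, gave 1236 on day 3 and 8075.5 on day 0, which differ by -2.71 on the log2 scale. Nop58 and Nop56, which encode core proteins of the particles that methylate ribosomal RNA, were lower too. Nop58 gave 3900.25 on day 3 and 22635.5 on day 0 (-2.54, and -2.20 by its other probe), and Nop56 gave 4010.5 on day 3 and 20971 on day 0 (-2.39). Polr1b, which encodes a subunit of RNA polymerase I, was below the threshold on day 3, at 66, against 300 on day 0, and so was at least 2.46-fold lower.

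**Figure D4:**
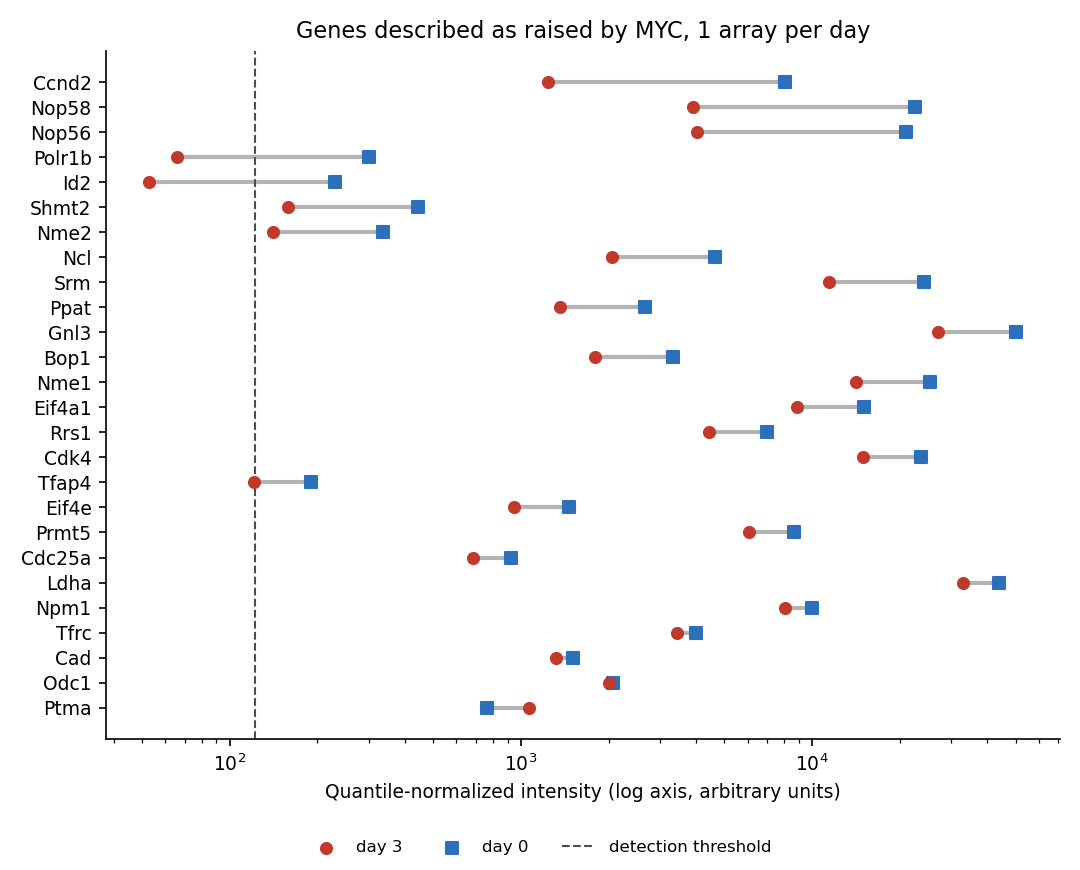
Signals of the 26 detected genes described as raised by MYC, on a log axis of quantile-normalized intensity with a gene on each line. Circles are the day 3 array, squares the day 0 array and the dashed line the threshold of 122. Day 3 lies left of day 0 for all genes but Ptma, and the gap is widest for Ccnd2 (1236 and 8075.5).

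The rest of that list was chosen for naming after its values were seen. The other 2-fold cases as read were Shmt2 (-1.48), an enzyme of one-carbon metabolism, Nme2 (-1.25), the nucleolar protein gene Ncl (-1.18, and -1.81 by its other probe), the spermidine synthase gene Srm (-1.08), and Id2, which was at least 1.88-fold lower. Not every gene that MYC is best known for was among them. Odc1, the textbook MYC target for polyamine synthesis, gave 2005 on day 3 and 2070 on day 0, which differ by -0.05 on the log2 scale, within the repeat-spot SD of 0.42. Cad, an enzyme of pyrimidine synthesis, gave 1321 on day 3 and 1504 on day 0 (-0.19), and Ptma, a chromatin protein gene that MYC raises, was higher, with 1063.5 on day 3 and 763 on day 0 (0.48). The genes Fbl, Hspd1, Hspe1 and Dkc1 were not matched by symbol and have no value here.

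CACGTG was found in the promoters of 5 of the 20 detected MYC-raised genes with a RefSeq entry (25%, against 12.1% of all detected genes with an entry). These were Cdk4, Eif4e, Eif4a1, Ldha and Nme1, and none was 2-fold lower under the main scaling. Of the 7 that were at least 2-fold lower and had an entry, 0 held it, against 5 of the other 13. These counts are small, were not tested and rest on the main scaling. Under median scaling over all gene probes 19 MYC-raised genes were 2-fold lower, against 24.3% of all detected genes. The promoter counts were not repeated there, so they do not show that genes with CACGTG differed less. The search covered only 250 bases before to 50 after a transcript start, so sites elsewhere in these genes were not seen. Cdk4, which encodes a kinase of the G1 phase and had 4 matches, gave 14976 on day 3 and 23733.5 on day 0, which differ by -0.66 on the log2 scale. Ldha, which encodes a subunit of lactate dehydrogenase and had 2 matches, gave 32978.5 on day 3 and 43765.5 on day 0 (-0.41). Their E-boxes nearest to the start of the promoter entry, which lies 3530 bases inside the outer 5′ end in the gene table for Ldha and at that end for Cdk4, are shown as examples of the site in genes that MYC is known to raise.
Cdk4, chr10:127063512-127063541, plus strand, E-box beginning 11 bases before the start: aagggtgaagatCACGTGtccagaacgtcc
Ldha, chr7:46845744-46845773, plus strand, E-box beginning 48 bases before the start: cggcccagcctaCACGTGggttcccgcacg

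Genes described as lowered by MYC went both ways. On day 3, 3 of 12 detected genes of this list were at least 2-fold lower, against 10.3% of all detected genes, and 1 was at least 2-fold higher, against 12.8% (median -0.19). Under both median scalings the number 2-fold higher was 0. In those settings 7.78% (all gene probes) and 17.5% (probes above the threshold on both days) of all detected genes were 2-fold higher. Ndrg2, a gene of the NDRG family whose name refers to its lowering by MYC, gave 21037 on day 3 and 9954 on day 0, which differ by 1.08 on the log2 scale. Its relative Ndrg1 gave 3172.75 on day 3 and 10407.5 on day 0 (-1.71, and -1.04 by its other probe). The anti-angiogenic matrix gene Thbs1 (-3.67) and the stress factor gene Ddit3 (-1.41) were the other 2-fold lower members. The following cell cycle inhibitor genes were named after their values were seen. Cdkn1a (0.14) and Cdkn2b (-0.22) differed by less than their repeat-spot SD of 0.37. Cdkn2c gave 2030.5 on day 3 and 1410.5 on day 0, a difference of 0.53 that was above its repeat-spot SD of 0.42 and below the pooled value of 0.58. Cdkn1b was below the threshold on day 3, at 101, against 127 on day 0, a bound of 1.04-fold lower. As read its difference was -0.33, under its repeat-spot SD of 0.43. Its raw intensity was higher on day 3, at 137, against 81 on day 0, so its direction rests on the normalization.

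**Figure D5:**
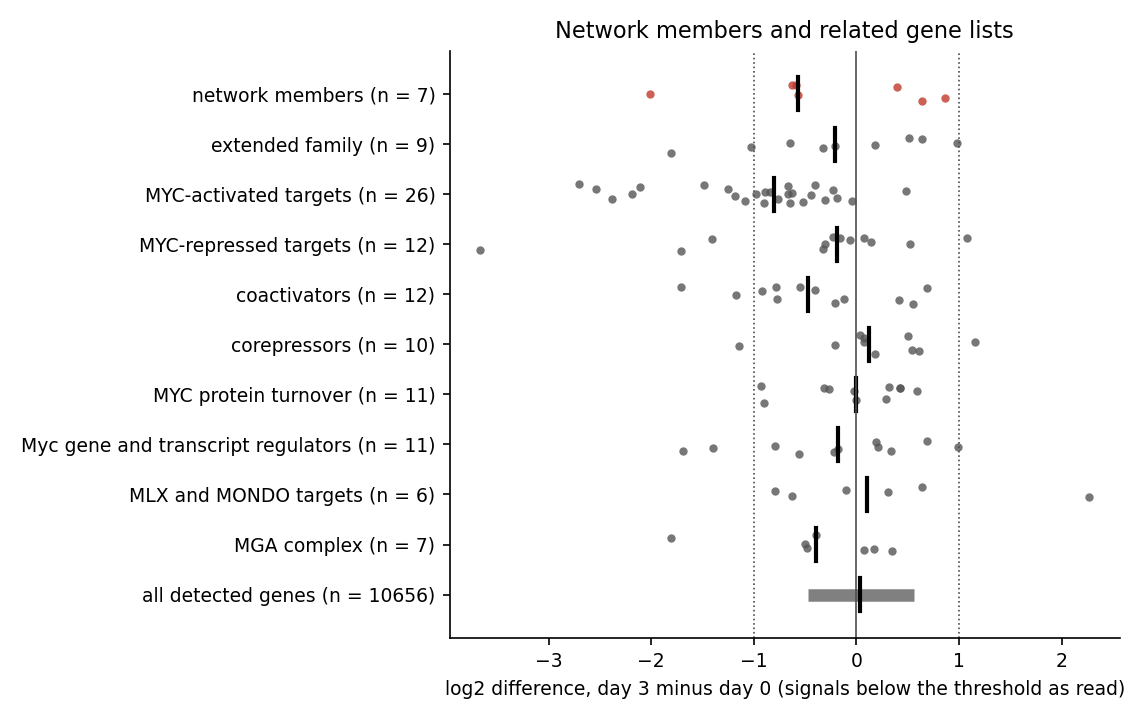
Log2 differences, day 3 minus day 0, of the detected network members (red) and of the detected genes in each related list (grey), with short bars at the medians and dotted lines at 2-fold. The thick line at the bottom joins the quartiles of all 10656 detected genes, -0.47 and 0.56. The MYC-activated targets have the lowest median of the lists, at -0.80. As read, the medians of the other 8 lists each lie on both sides of 0 over the 10 settings. Relative to all genes, the medians of the MYC-repressed targets, coactivators, Myc gene and transcript regulators and MGA complex lie below 0 in all 10. That of the corepressors lies above 0 in all 10, and the remaining lists change sign. These settings are not 10 separate checks.

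Cofactors of the activating and repressing arms were read separately, and the difference between them was not tested. Among 12 detected coactivator genes 2 were at least 2-fold lower on day 3 (16.7%, against 10.3% of all detected genes) and 0 higher (against 12.8%), with a median of -0.48. Ruvbl1 and Ruvbl2, which encode the paired ATPases of the TIP60 complex that MYC recruits, were those 2. Ruvbl1 gave 1203 on day 3 and 3933.5 on day 0 (-1.71), and Ruvbl2 gave 785 on day 3 and 1765.5 on day 0 (-1.17). Among 10 detected corepressor genes 1 was 2-fold higher and 1 lower, about the shares of all detected genes (12.8% and 10.3%), with a median of 0.13. Sin3b, the scaffold that MXD proteins bind, gave 3172.75 on day 3 and 1421.25 on day 0 (1.16, but 0.19 by its other probe). Rbbp4, a histone-binding subunit of the same complex, gave 3803.5 on day 3 and 8407.75 on day 0 (-1.14). Rbbp7, the relative of Rbbp4 in that complex, was counted as within 2-fold by a brightest probe that is saturated on day 3, while its other 3 detected probes gave -2.01, -2.15 and -2.05.

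By their brightest probes, 0 of 11 detected genes for the turnover of MYC protein were 2-fold lower or higher, against 10.3% and 12.8% of all detected genes, and their median was -0.01. This count rests on the choice of probe and the scaling. Other detected probes gave -2.38 for Skp2, -2.13 for the ubiquitin ligase gene Huwe1 and -1.14 for the kinase gene Mapk3. The number 2-fold lower was 2 under median scaling over all gene probes, against 24.3% of all detected genes in that setting. It was 1 under median scaling over probes above the threshold on both days (against 8.87%) and 1 with the mean of all probes (against 10.8%). With no normalization 2 were 2-fold higher, against 35.7%. These counts do not stand apart from the shares of all detected genes. The largest differences by the brightest probes were those of Skp2, a ubiquitin ligase subunit for MYC and for p27, at 1555 on day 3 and 2959 on day 0 (-0.93), and of the mitotic kinase gene Aurka, at 779.75 on day 3 and 1459.75 on day 0 (-0.90). Fbxw7, the ligase subunit best known for marking MYC for destruction, was named after its values were seen and differed by 0.59. Among 11 detected factors that act on the Myc gene or its transcript, 2 were 2-fold lower (18.2%, against 10.3% of all detected genes) and 0 higher (against 12.8%), with a median of -0.18. The lower ones were Hnrnpk, a nucleic acid binding protein, with 2423 on day 3 and 7837 on day 0 (-1.69, and -1.78 and 0.26 by its other probes), and Fubp1, which binds an element upstream of Myc, with 328 on day 3 and 862 on day 0 (-1.39).

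Of 6 detected genes described as raised by MLX with MondoA or ChREBP, 1 was 2-fold higher on day 3, against 12.8% of all detected genes, and 0 were lower, against 10.3% (median 0.10). Under median scaling over all gene probes 2 of the 6 were 2-fold lower, against 24.3% of all detected genes in that setting. Relative to the median of all genes, 0 were 2-fold lower there. Txnip, which restrains glucose uptake and is the best known MondoA target, gave 23215 on day 3 and 4816 on day 0, a 4.82-fold or 2.27 log2 difference. Its relative Arrdc4, named after its values were seen, gave 6079.5 on day 3 and 6546 on day 0 (-0.11, and 0.58 by its other probe), so the 2 genes of that family differed in size.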

How the data were processed

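Messenger RNA was measured in 2 samples, 1 per day, grouped by the stage in the labels. Per the labels' protocols, RNA was column-extracted, and 1 µg was amplified and labelled with Cy5 by Phalanx. The deposited tables hold a linear intensity for each of 39200 spots per array, and the background was apparently subtracted already, since the 7402 empty spots had a median of 0 on both days. The labels name neither scanner nor software. A table for the whole series holds the authors' processed intensity values for 11482 gene probes, on a linear scale and apparently quantile-normalized (column medians of 1414 on both days); how its probes were chosen is unknown.

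The 29922 gene probes were quantile-normalized with limma 3.58.1 (R 4.3.3), checked on simulated data, floored at 10 and put on the log2 scale. The simulation changed only a small share of probes, equally in both directions, so it does not cover wider shifts between these arrays. Symbols (17558 current, 3410 updated from synonyms, 52 kept) came from the platform annotation and a GRCm38.p6 gene table. Where a gene had several probes, the brightest by mean log2 signal represented it. Signals under the median of all gene probes, 122, give only bounds, and signals of 65000 or more were taken as saturated. The repeat-spot error came from repeated control features below saturation, 277 in all, of which only readings at a mean log2 signal of 6 or more were used. It was taken in bins of signal. The bin from 8 to 10, used for Mnt and the brightest probes of Mxd1 and Mxi1, held 20 feature readings over both arrays. This error was taken within each array, so it leaves out variation in amplification and labelling, between arrays and between cultures. With 1 array per day there was no test, and the number of arrays limits the precision. Members, lists and comparisons were chosen with earlier results of these data known, the members by gene symbol and not by measured values. Named genes were all members, up to 4 members of each list at 2-fold (or the 2 largest), and the 3 genes nearest to Myc.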

Additional observations from a re-analysis of the deposited data

How the results depend on the processing

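The log2 differences of the 7 detected members were recomputed under 9 alternatives, and 49 of 63 values moved by less than the repeat-spot SD. That count includes values that could not move, so it does not measure stability. The 2 settings that act only on the threshold leave every member's value as it was, and the mean of all probes leaves members with 1 probe unchanged. With arrays scaled to the median of all gene probes, which put the median detected gene at -0.49, Myc gave -2.64, Max -1.22, Mxd4 -1.16, Mxi1 0.41 and Mlx -0.27, and 3 members were 2-fold lower, as were 19 MYC-raised genes and 24.3% of all detected genes, with 7.78% 2-fold higher. With no normalization, where that median was 0.67, Myc gave -1.55, Max -0.13, Mxd4 -0.069, Mxd1 1.45, Mxi1 1.50, Mnt 0.24 and Mlx 0.82. There 2 members were 2-fold higher, as were 1 MYC-raised gene and 35.7% of all detected genes, while 4 MYC-raised genes and 2.85% of all were 2-fold lower. Relative to the median of all genes, the members at 2-fold were 1 lower and 0 higher in both settings. The mean of all probes gave -1.32 for Myc and 0.15 for Mxi1. A threshold from empty spots admitted Mxd3, at -0.81 with its day 3 signal at the floor. Myc was at least 2-fold lower in all 10 settings. Cyclic loess, the authors' table and an offset of 50 moved no member by more than the repeat-spot SD. Nor did scaling to the median of probes above the threshold on both arrays. Setting signals to the threshold could not move any of the 7, because all were above it on both days. Leaving out a replicate was not possible with 1 array per day. No paired analysis was possible because each day has 1 sample. Depth is not defined for arrays, and dim probes near the threshold of 122 limit what Mxd1, Mnt and the dimmer Myc and Mxi1 probes can show.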

Other observations

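Several genes around the network had probes that disagreed, and these were chosen after their values were seen. Huwe1, a large ubiquitin ligase that acts on MYC, gave a log2 difference of 0.42 by its brightest probe and -2.13 by its other detected probe. Rbbp7, a histone-binding subunit of the SIN3 complex, read 65473 on day 3, which is saturated, and 59263 on day 0 in raw intensity by its brightest probe, so that this probe could not show a higher day 3 level. The enzyme gene Ppat gave -0.98 and -1.79, and Tcf7l2, a transcription factor that acts on Myc in Wnt signalling, gave 0.99 and -0.67. The rule of the brightest probe decides the value of each of these genes in the lists.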
